A study of Homo sapiens with 8 samples.

Results

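Cells of the human leukemia line MOLM13 that had been depleted of IGF2BP2 and given a mutant of the same gene (mutant rescue, 2 libraries) were set against cells depleted of IGF2BP2 alone (knockdown, 2 libraries). The 4 libraries are those labelled as these groups among the 8 libraries of the series, and the differences were computed from their deposited log2 values. The comparison covered 24407 named genes that were not 0 in every library, out of 35370 genes in the table, and 13016 of them, at 1 ppm or more of a library's summed linear value in at least 2 libraries, were tested. MOLM13 is an established acute myeloid leukemia line of monocytic type. The other libraries come from cells given back IGF2BP2 (rescue, 2 libraries) and from control cells with a wild-type genotype label (2 libraries), and they entered the fit so that all groups share an estimate of the spread. Per the labels, all 4 groups were grown in RPMI-1640 with serum, infected with virus in the presence of polybrene, and treated with puromycin where selection was needed. The mutation, the hairpin and any vector carried by the knockdown and control cells are not described in the labels, and neither is the date or batch of any library. Nothing in the labels tells whether the 2 libraries of a group had cultures of their own, and the spread that the p-values rest on may therefore be technical.

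IGF2BP2 is an RNA-binding protein of the IGF2BP family, which binds messenger RNAs, among them RNAs that carry N6-methyladenosine, and is known for keeping them stable. Interferon-stimulated genes, which dominate the results below, are switched on when type I interferon binds its receptor and the kinases JAK1 and TYK2 act on STAT proteins. These join IRF9 in a complex that binds a short promoter element rich in GAAA, and many of the genes so induced encode proteins that restrict viruses.

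Values are log2 expression levels as deposited, normalized by the authors across the 8 libraries, and a difference is mutant rescue minus knockdown on that scale. Genes were tested with limma over all 8 libraries, and a gene was called at a Benjamini-Hochberg adjusted p under 0.05. Replicate libraries differed most in mutant rescue, with a standard deviation of the replicate difference across genes of 0.303, against 0.148 in knockdown. The line's myeloid markers CD33, FLT3, HOXA9, MEIS1, SPI1, LYZ, CD14, ITGAM and PTPRC were all above the testing limit, whereas GATA1, KLF1, ITGA2B, EPCAM, COL1A1 and CDH5 were below it and CD3E and MS4A1 were at 0 in every library. Of the wider lists of other cells, KLRD1 of natural killer cells (a difference of -0.83) and the epithelial gene CDH1 (-0.43) fell, and none of the others tested was called; only 1 of 11 erythroid, 3 of 15 lymphoid and 3 of 15 nonhematopoietic genes were high enough to test. For these, the call was lost for KLRD1 and CDH1 without knockdown replicate 1 (adjusted p = 0.149 to 0.162), for KLRD1 and CDH1 without knockdown replicate 2 (adjusted p = 0.128 to 0.247), for CDH1 without control replicate 1 (adjusted p = 0.0607), for CDH1 without control replicate 2 (adjusted p = 0.0607), for CDH1 without rescue replicate 1 (adjusted p = 0.0563), for CDH1 without rescue replicate 2 (adjusted p = 0.0558) and for CDH1 without mutant rescue replicate 2 (adjusted p = 0.13). The libraries are bulk RNA, so fewer cells of a kind and less RNA per cell cannot be told apart. Read depth is unknown.

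The largest increases in mutant rescue over knockdown were those of interferon-stimulated genes, and most of these genes stayed below their level in rescue. In all, 727 genes were higher in mutant rescue than in knockdown (5.59% of those tested) and 747 were lower (5.74%). Of 87 tested members of 8 interferon lists, 52 rose and 1 fell, and their median difference was 0.96, against 0.05 over all genes tested and 0.46 in MHC class I genes, the list with the next highest median among those outside the theme. Averaged over these 87 members, the log2 levels were 9.34 and 9.27 in mutant rescue and 8.12 and 8.16 in knockdown. In rescue they were 10.4 and 10.41, and in control 7.88 and 7.88, so that on average control lay below knockdown. The highest 10 increases among called genes were all interferon-stimulated genes, from IFIT1 with 4.33 to OASL with 3.08. The deepest decrease was smaller in size, -1.83 for NPIPB5. With library medians made equal, 376 genes were higher and 944 lower, which is 28.5% of calls higher against 49.3% as deposited, and 49 interferon list members were called higher. Leaving out a single library moved the gene counts widely: without knockdown replicate 1 there were 62 higher and 32 lower, without knockdown replicate 2 there were 57 and 22, without mutant rescue replicate 1 there were 1850 and 951, and without mutant rescue replicate 2 there were 188 and 295. Leaving out rescue replicate 1 gave 391 higher and 573 lower, and rescue replicate 2 gave 397 and 586. Without control replicate 1 there were 543 and 493, and without control replicate 2 there were 538 and 496. Across these same fits the interferon list members called higher numbered 35 to 52. Testing every gene without a filter on low values gave 217 higher and 355 lower, and a fit of only the groups compared gave 121 and 153.

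In the authors' deposited table for the same comparison, 569 of the genes tested here were higher in mutant rescue (4.37%) and 455 lower (3.5%) at an adjusted p under 0.05. Of these 1024 genes, 792 were also among the 1474 called here, and all 792 had the same direction in both. The authors' deposited table gave log2 changes of 5.77 for IFIT1 and 5.72 for IFI27, larger than the differences between the library values, and -2.33 for NPIPB5.

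IGF2BP2 itself, the check on the labels, had log2 values of 11.03 and 10.68 in mutant rescue, against 10.24 and 10.25 in knockdown. The groups did not overlap, and the transcript was 1.52-fold higher in mutant rescue (difference 0.61, SE 0.13, limma adjusted p = 0.0299). Gene-level values do not separate the cell's own transcript from that of the construct. Its call was lost without knockdown replicate 1 (adjusted p = 0.165), without knockdown replicate 2 (adjusted p = 0.191), without a minimum level (adjusted p = 0.0669) and in a fit of only the groups compared (adjusted p = 0.0722). In control IGF2BP2 had 10.94 and 10.89, above both knockdown libraries and between the 2 mutant rescue libraries. In rescue IGF2BP2 had 11.36 and 11.13, above both mutant rescue libraries, and mutant rescue minus rescue did not pass (-0.39, limma adjusted p = 0.084). Whether this level plays a part in the differences between the 2 constructs was not tested. PRMT6, which encodes an arginine methyltransferase, had 8.49 and 8.49 in mutant rescue and 8.20 and 8.08 in knockdown, a difference of 0.36 short of the threshold (limma adjusted p = 0.0646). MFSD2A, which encodes a lysophospholipid transporter, had 8.87 and 8.60 in mutant rescue and 9.05 and 8.97 in knockdown (difference -0.28, adjusted p = 0.182). Both groups of 2 libraries were apart for each of these genes, as they were, with mutant rescue higher, for 37.1% of all genes tested and, with mutant rescue lower, for 25.9%. The relatives IGF2BP1 and IGF2BP3 did not pass (differences 0.17 and -0.20, adjusted p = 0.42 and 0.555).

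All 7 members of the IFIT and IFITM families rose, with a median difference of 2.90. IFIT proteins bind viral or unmethylated RNA ends, and IFITM proteins sit in membranes and hinder virus entry. IFIT1 had log2 values of 11.45 and 11.28 in mutant rescue, against 6.98 and 7.09 in knockdown. That is a 20.2-fold difference on this scale (4.33, SE 0.12, limma adjusted p = 1.24e-06). IFIT3 had 12.30 and 12.18 in mutant rescue and 8.22 and 8.24 in knockdown. IFIT2 had 11.76 and 11.71 in mutant rescue and 8.04 and 8.20 in knockdown. In all 3 genes the mutant rescue libraries lay close together and far above both knockdown libraries. IFITM1 had 8.40 and 8.65 in mutant rescue, against 5.71 and 5.76 in knockdown (difference 2.79, adjusted p = 8.24e-06). IFITM3 had 9.13 and 9.33 in mutant rescue, against 6.33 and 6.34 in knockdown (difference 2.90, adjusted p = 5.49e-06). IFIT5 rose by 1.75. IFITM2 rose least, by 0.50 (adjusted p = 0.0496), and its sequence is close to those of IFITM1 and IFITM3, so that its value is uncertain. For IFITM2, the call was lost without knockdown replicate 1 (adjusted p = 0.209), without knockdown replicate 2 (adjusted p = 0.248), without rescue replicate 1 (adjusted p = 0.0704), without rescue replicate 2 (adjusted p = 0.0702) and without mutant rescue replicate 2 (adjusted p = 0.158).

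The oligoadenylate synthetases OAS1, OAS2 and OAS3 make a nucleotide messenger when they meet double-stranded RNA. All 4 family members rose, their relative OASL included. OAS2 had 11.22 and 11.02 in mutant rescue, against 7.72 and 7.71 in knockdown, and rose 10.6-fold (difference 3.41, SE 0.11, limma adjusted p = 1.24e-06). OAS1 had 11.73 and 11.70 in mutant rescue and 8.49 and 8.47 in knockdown. The differences of OAS1, OASL and OAS3 were 3.24, 3.08 and 2.58, and in none of the 4 genes did the groups overlap.

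Among 36 other interferon-stimulated effectors, 28 rose, GBP4 fell, and the median difference was 1.32. IFI6, a mitochondrial and endoplasmic reticulum protein, had 12.31 and 12.98 in mutant rescue, against 8.45 and 8.28 in knockdown (difference 4.28, SE 0.19, adjusted p = 7.13e-06). IFI27, its relative, had 10.86 and 10.85 in mutant rescue, against 6.68 and 6.73 in knockdown (difference 4.14, SE 0.12, adjusted p = 1.24e-06). The IFI6 replicates were further apart than those of IFI27, yet both genes were far above knockdown. IFI44L rose by 3.21 and SIGLEC1, a sialic-acid receptor of interferon-exposed macrophages, by 3.15. RSAD2, the enzyme viperin that makes an antiviral nucleotide, rose by 1.77, ISG20, an exonuclease, by 1.23, and LGALS3BP, a secreted galectin-binding protein, by 1.35. ISG15, the ubiquitin-like modifier, rose by 1.41, MX2 by 1.73 and MX1, a GTPase that traps viral nucleocapsids, by 0.66. The members that did not pass were PARP12, TRIM5, TRIM25, GBP1, GBP2, SAMHD1 and APOBEC3G. GBP4, a guanylate-binding protein, had 6.08 and 6.11 in mutant rescue and 6.88 and 6.73 in knockdown (difference -0.71, adjusted p = 0.0207). IFIT5, IFITM2, ISG15, MX1, MX2 and the guanylate-binding proteins were picked for mention after their values were seen. Among these, the call was lost for GBP4, MX1 and ISG15 without knockdown replicate 1 (adjusted p = 0.0629 to 0.176), for GBP4, MX1 and ISG15 without knockdown replicate 2 (adjusted p = 0.0508 to 0.169) and for GBP4 without mutant rescue replicate 2 (adjusted p = 0.0529), and the call of MX2 and IFIT5 held in every fit that left out a library. The calls of IFIT1, IFIT2, IFIT3, IFITM1, IFITM3, OAS1, OAS2, OAS3, OASL, IFI6, IFI27, IFI44L, SIGLEC1, RSAD2, ISG20 and LGALS3BP held in every fit that left out a library and under every other setting tried.

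**Figure D1:**
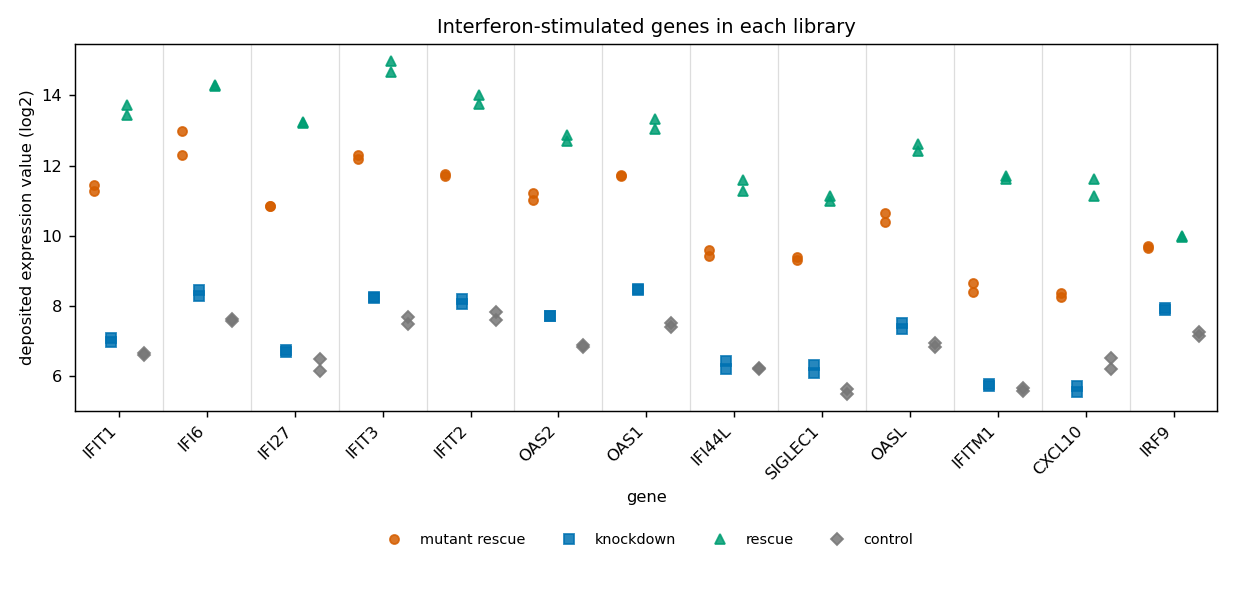
Deposited log2 expression value (vertical axis) of 13 interferon-related genes (horizontal axis) in each library of mutant rescue, knockdown, rescue and control, 1 symbol per library. For IFIT1 the mutant rescue libraries stand at 11.45 and 11.28 and the knockdown libraries at 6.98 and 7.09; in every gene shown mutant rescue lies above knockdown and below rescue.

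The promoters of 4 of these genes are shown because their letters are those of the element described for interferon-induced transcription. Sequences are from RefSeq on GRCh38.p14 and run 5′ to 3′ on the gene's strand, from 250 bases before to 50 bases after the start. Capitals mark GAAA, NN and GAAA in a row, N being any base, on either strand; a match on the opposite strand reads TTTC, NN and TTTC. No other motif was searched, and the matches shown do not overlap.
IFIT1, chr10:89392373-89392672, plus strand: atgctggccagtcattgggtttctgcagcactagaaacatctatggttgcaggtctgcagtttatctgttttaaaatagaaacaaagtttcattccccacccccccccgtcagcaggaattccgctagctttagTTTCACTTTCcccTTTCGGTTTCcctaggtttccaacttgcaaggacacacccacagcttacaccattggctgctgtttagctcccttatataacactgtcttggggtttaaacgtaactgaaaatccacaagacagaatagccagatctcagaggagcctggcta
IFI6, chr1:27672143-27672442, minus strand: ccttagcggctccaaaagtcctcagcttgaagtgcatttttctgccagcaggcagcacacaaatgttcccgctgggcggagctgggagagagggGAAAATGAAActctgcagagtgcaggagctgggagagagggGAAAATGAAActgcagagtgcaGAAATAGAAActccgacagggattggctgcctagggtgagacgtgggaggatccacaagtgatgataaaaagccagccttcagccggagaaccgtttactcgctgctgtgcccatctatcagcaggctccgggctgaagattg
IFI27, chr14:94110486-94110785, plus strand: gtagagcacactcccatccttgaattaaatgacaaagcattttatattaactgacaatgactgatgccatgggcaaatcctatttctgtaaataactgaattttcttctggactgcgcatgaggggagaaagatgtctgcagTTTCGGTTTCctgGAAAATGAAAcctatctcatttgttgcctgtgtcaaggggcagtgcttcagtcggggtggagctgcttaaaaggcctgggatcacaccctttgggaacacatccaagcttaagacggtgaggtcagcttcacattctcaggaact
IFITM1, chr11:313790-314089, plus strand: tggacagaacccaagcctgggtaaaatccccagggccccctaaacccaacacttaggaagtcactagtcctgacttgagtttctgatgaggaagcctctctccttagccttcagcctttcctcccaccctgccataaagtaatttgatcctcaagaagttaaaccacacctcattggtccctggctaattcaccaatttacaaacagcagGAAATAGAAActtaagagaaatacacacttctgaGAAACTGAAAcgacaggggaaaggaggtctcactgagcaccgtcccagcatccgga
These letters occurred 2 times in the IFIT1 window, 3 times in that of IFI6 and 2 times in that of IFI27, in the last case once on each strand. In the window of OAS1 they did not occur. Of all 27305 promoters in the table, 996 (3.65%) hold the letters. Only 40 of the 52 interferon list members that rose (76.9%) and 77.1% of all genes tested have an entry in the table. Shares were not compared between gene groups. A match is a description of the sequence, and its part in the differences was not tested.

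Interferon genes themselves were low. IFNA2 was the only ligand tested, and it reached the testing limit in the rescue libraries alone. It had 3.49 and 3.58 in mutant rescue and 3.49 and 3.50 in knockdown, all below that limit. The difference of 0.04 did not pass (limma adjusted p = 0.738). IFNB1 had 3.07 and 3.01 in mutant rescue and 3.04 and 2.99 in knockdown, below that limit, and was looked up after the other values were seen. Of 10 receptors, kinases and STATs, 2 rose, among them STAT2 by 0.72, and IFNAR1, IFNAR2, JAK1, JAK2 and TYK2 did not pass (differences of -0.21, -0.05, -0.20, -0.13 and -0.07). Of 8 interferon regulatory factors, 3 rose. In shares, 20% of the receptor list, 37.5% of these factors and 40% each of the sensors and feedback inhibitors below rose. Over all genes tested the share was 5.59%. IRF9, a DNA-binding partner of STAT proteins, had 9.71 and 9.66 in mutant rescue, against 7.87 and 7.93 in knockdown (difference 1.79, limma adjusted p = 3.92e-05). IRF7, which drives interferon genes, had 8.96 and 8.93 in mutant rescue, against 7.48 and 7.20 in knockdown (difference 1.61, adjusted p = 0.00043). IRF2 rose by 0.48, while IRF1 had a lower value in mutant rescue without passing (-0.32, adjusted p = 0.0704). Of 15 nucleic acid sensors and adaptors, 6 rose, among them IFI16 by 1.44, the kinase EIF2AK2 (PKR) by 1.17, DDX58 (RIG-I) by 1.01 and DHX58 (LGP2) by 1.03, whereas the adaptors MAVS and TMEM173 (STING) and the sensor MB21D1 (cGAS) did not pass (-0.30, 0.03 and -0.23). Among 5 feedback inhibitors USP18, which removes ISG15 and blocks the receptor, rose by 2.42 and the phosphatase gene PTPN6 by 0.41. The calls of IRF9, IRF7, IFI16, EIF2AK2 and USP18 held in every fit that left out a library. Of the calls just named, limma no longer passed 1 without control replicate 1 (adjusted p = 0.0588), 1 without control replicate 2 (adjusted p = 0.0591), 5 without knockdown replicate 1 (adjusted p = 0.0629 to 0.246), 4 without knockdown replicate 2 (adjusted p = 0.103 to 0.244), 1 without rescue replicate 1 (adjusted p = 0.0609), 1 without rescue replicate 2 (adjusted p = 0.0609), 1 without mutant rescue replicate 1 (adjusted p = 0.082) and 2 without mutant rescue replicate 2 (adjusted p = 0.0637 to 0.0731). Under other settings it did not pass 2 without a minimum level (adjusted p = 0.0521 to 0.0757), 2 with equal library medians (adjusted p = 0.0658 to 0.0804), 3 in a fit of only the groups compared (adjusted p = 0.0516 to 0.0847) and 1 with group weights (adjusted p = 0.0624).

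**Figure D2:**
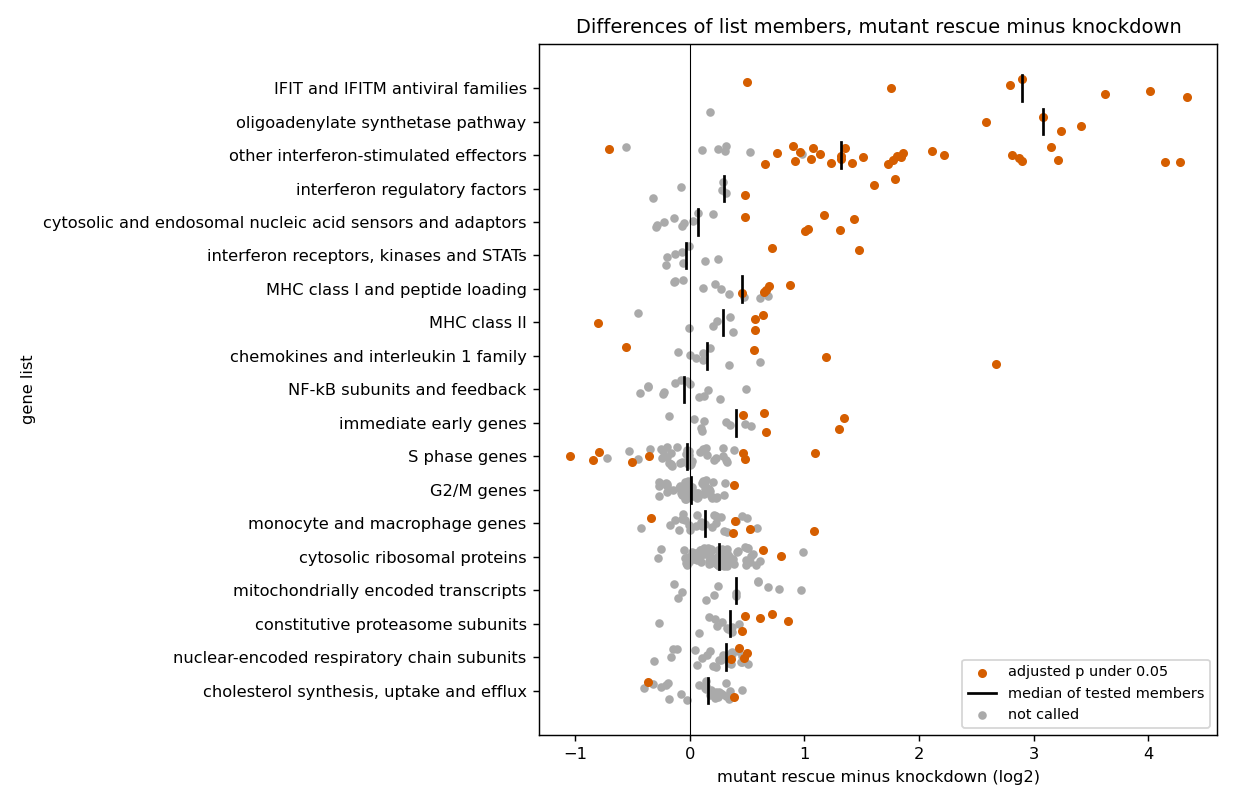
Difference in log2 value, mutant rescue minus knockdown (horizontal axis), of every tested member of 19 gene lists (vertical axis), with called genes in orange, the others in grey and a bar at the median. The medians of the IFIT and IFITM families (2.90) and of the oligoadenylate synthetase pathway (3.08) lie far to the right of those of the cell cycle lists (-0.02 for S phase and 0.01 for G2/M).

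Genes outside the interferon, antigen presentation and inflammation lists with the highest increases included several that are also known interferon targets. UBE2L6, the conjugating enzyme for ISG15, had 10.78 and 10.94 in mutant rescue, against 8.74 and 8.76 in knockdown (difference 2.11, SE 0.13, limma adjusted p = 6.5e-05). LY6E, a membrane-anchored protein that affects virus entry, had 13.29 and 13.37 in mutant rescue, against 11.42 and 11.30 in knockdown (difference 1.97, adjusted p = 2.73e-05). C19orf66, now named SHFL, an inhibitor of ribosomal frameshifting, rose by 1.79, and the ADP-ribosyltransferase gene PARP10 by 1.52. HELZ2, a helicase gene, rose by 1.33. The receptor tyrosine kinase gene AXL had 13.13 and 13.65 in mutant rescue, against 11.85 and 11.88 in knockdown (difference 1.53, adjusted p = 0.00491). NEXN, an actin-binding protein gene, rose by 1.51, NPM3, a histone chaperone gene of the nucleoplasmin family, by 1.38, and RIN2, a RAB5 exchange factor gene, by 1.46. AKT1, the serine/threonine kinase gene, had 6.66 and 7.92 in mutant rescue and 6.17 and 5.56 in knockdown (difference 1.42, adjusted p = 0.0495), and its libraries lay far apart within both groups. The read-through transcript ARHGAP19-SLIT1 rose by 1.37 and shares exons with its neighbours, which leaves its value uncertain. The calls of UBE2L6, LY6E, C19orf66, NEXN, NPM3 and DUSP1 held in every fit that left out a library. Among these calls, limma no longer passed 2 without control replicate 1 (adjusted p = 0.0513 to 0.0686), 2 without control replicate 2 (adjusted p = 0.0513 to 0.0684), 4 without knockdown replicate 1 (adjusted p = 0.0522 to 0.149), 6 without knockdown replicate 2 (adjusted p = 0.0508 to 0.273), 1 without rescue replicate 1 (adjusted p = 0.0658), 1 without rescue replicate 2 (adjusted p = 0.0657) and 3 without mutant rescue replicate 2 (adjusted p = 0.0725 to 0.142). By the alternative settings, the calls lost were 3 without a minimum level (adjusted p = 0.0608 to 0.102), 1 with a filter at 5 ppm (adjusted p = 0.0541), 4 in a fit of only the groups compared (adjusted p = 0.0608 to 0.104) and 2 with group weights (adjusted p = 0.0511 to 0.0635).

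Set against rescue, the other construct, mutant rescue had lower levels of most interferon-stimulated genes. Across the genes tested, mutant rescue exceeded rescue in 601 (4.62%) and was below it in 767 (5.89%). Of the 87 interferon list members 57 were lower and 2 were higher, IRF5 and CISH, and their median difference was -1.08, against 0.02 over all genes. IFITM1 had 8.40 and 8.65 in mutant rescue, against 11.69 and 11.63 in rescue (difference -3.13, SE 0.13, limma adjusted p = 2.35e-05). IFIT3 had 12.30 and 12.18 in mutant rescue, against 14.68 and 14.99 in rescue (difference -2.60, adjusted p = 2.35e-05). CXCL10 had 8.38 and 8.25 in mutant rescue, against 11.13 and 11.61 in rescue (difference -3.06, adjusted p = 6.82e-05). In all 3 genes both mutant rescue libraries lay below both rescue libraries. The other decreases among the 10 deepest were those of NEXN (-2.94), LGALS3BP (-2.78), OAS3 (-2.62), RSAD2 (-2.51), ISG20 (-2.48), IFITM3 (-2.48) and USP18 (-2.47). The distance to rescue differed among genes that had all risen over knockdown. IRF9 had 9.71 and 9.66 in mutant rescue, against 9.99 and 9.97 in rescue, and AXL had 13.13 and 13.65, against 13.05 and 13.47; neither difference passed (-0.29, adjusted p = 0.0982, and 0.13, adjusted p = 0.677). IRF1 had 8.67 and 8.78 in mutant rescue, against 10.52 and 10.43 in rescue (difference -1.75, adjusted p = 4.8e-05), although mutant rescue had not risen over knockdown. IFNA2, counted among the 57, had 3.49 and 3.58 in mutant rescue, against 4.52 and 4.76 in rescue (difference -1.10). It reached the testing limit only in the rescue libraries, so its call against rescue rests on the values that let it be tested. Of 14 NF-kB subunit and feedback genes, 4 were called lower than in rescue by limma and 0 higher, with a median difference of -0.14. NFKBIA and TNFAIP3 were among the 4 (differences -1.39 and -1.47). IRF1 and TNFAIP3 were chosen after their values were seen. The differences from knockdown and from rescue share the mutant rescue libraries. The gene counts depended on single libraries, with 219 higher and 455 lower without rescue replicate 1, 70 and 171 without rescue replicate 2, 1687 and 1182 without mutant rescue replicate 1, 267 and 425 without mutant rescue replicate 2, 207 and 382 without knockdown replicate 1 and 207 and 380 without knockdown replicate 2. In the same fits 52 to 60 interferon list members were called lower than in rescue; without a filter on low values 299 genes were higher and 477 lower, in a fit of only the groups compared 46 and 147, and with group weights 247 and 391.

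**Figure D3:**
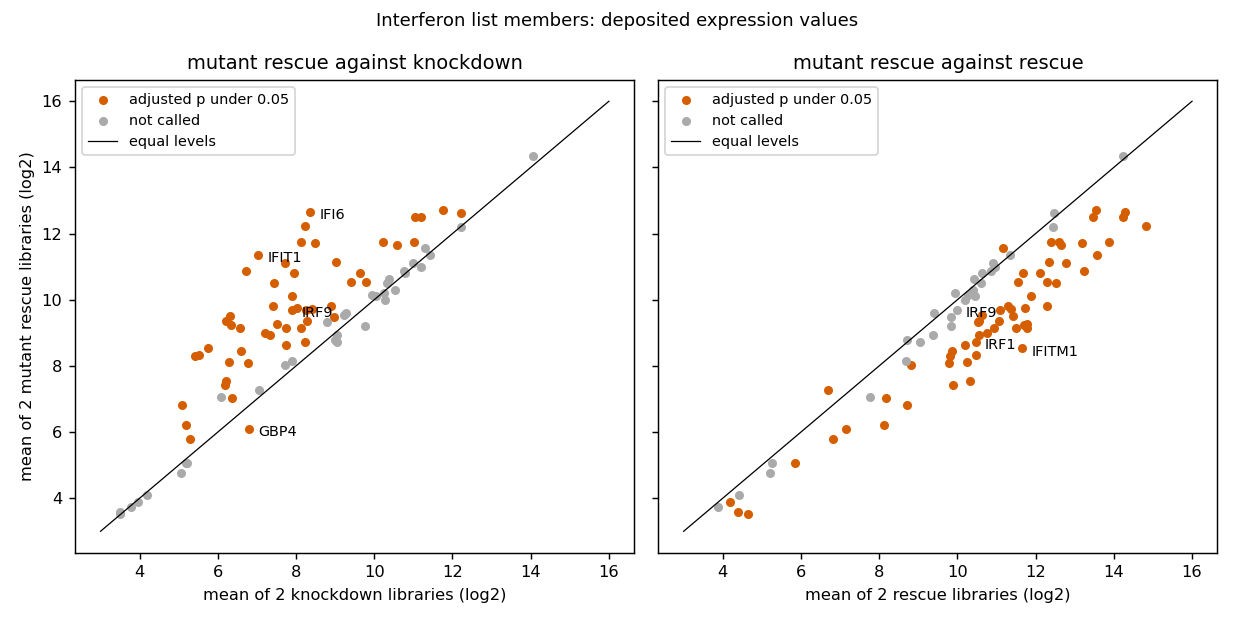
Mean log2 value in mutant rescue (vertical axis) of the 87 tested interferon list members against the mean in knockdown (left, horizontal axis) and in rescue (right, horizontal axis), with called genes in orange and the line of equal levels. Of the 87 genes 52 are called above the line on the left and 57 below it on the right; IRF9 lies far above the line on the left and close to it on the right.

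A minority of antigen presentation genes rose. Of 15 genes of MHC class I and peptide loading, which show cytosolic peptides to T cells, 5 rose (median 0.46). That is 33.3%, against 5.59% of all genes tested. The immunoproteasome subunit gene PSMB9 had 10.75 and 10.86 in mutant rescue, against 9.90 and 9.96 in knockdown (difference 0.87, SE 0.11, limma adjusted p = 0.00498). PSMB8 rose by 0.69, the peptide transporter gene TAP1 by 0.66, B2M, the light chain of class I molecules, by 0.65 and HLA-F by 0.46, the last picked after its value was seen. Of 10 class II genes 3 rose (30%) and 1 fell (10%), against 5.59% and 5.74% of all genes tested. The invariant chain gene CD74 had 13.43 and 13.61 in mutant rescue, against 12.86 and 12.91 in knockdown (difference 0.64, adjusted p = 0.0245). HLA-DRB1 and HLA-DMA rose by 0.57 and 0.57, and HLA-DQA1 fell by 0.80 on the log2 scale. These genes are highly variable between people, and reads of HLA-DRB1 and HLA-DQA1 can be lost or shared with relatives, so that both values are uncertain. In class II the levels were also above rescue in 6 of 10 genes and below it in 1, against 4.62% and 5.89% of all genes tested. Among 12 chemokine and interleukin-1 family genes 3 rose (25%) and 1 fell (8.33%). CXCL10, a chemokine for activated T cells, had 8.38 and 8.25 in mutant rescue, against 5.72 and 5.56 in knockdown (difference 2.67, SE 0.18, adjusted p = 0.000142). CCL3, a chemokine of activated macrophages, had 8.99 and 9.38 in mutant rescue, against 7.99 and 8.00 in knockdown (difference 1.19, adjusted p = 0.00365). IL1RN, the interleukin-1 receptor antagonist gene, rose by 0.56, and TNF fell by 0.56 on the log2 scale. None of 14 NF-kB subunit and feedback genes was called by limma in either direction (median -0.05, 3 at an unadjusted p under 0.05), and NFKBIA had a difference of -0.22. For HLA-F, the call was lost without control replicate 1 (adjusted p = 0.059), without control replicate 2 (adjusted p = 0.0588), without knockdown replicate 1 (adjusted p = 0.211), without knockdown replicate 2 (adjusted p = 0.236), without rescue replicate 1 (adjusted p = 0.0628), without rescue replicate 2 (adjusted p = 0.0626) and without mutant rescue replicate 2 (adjusted p = 0.127). The calls of CXCL10 and CCL3 held in every fit that left out a library. The 12 calls named by rule in these lists were less firm: limma no longer passed 10 without knockdown replicate 1 (adjusted p = 0.0675 to 0.218), 10 without knockdown replicate 2 (adjusted p = 0.0589 to 0.237), 1 without rescue replicate 1 (adjusted p = 0.0656), 1 without rescue replicate 2 (adjusted p = 0.0657), 1 without mutant rescue replicate 1 (adjusted p = 0.0544) and 5 without mutant rescue replicate 2 (adjusted p = 0.0578 to 0.134). Among the other settings, not passed were 4 without a minimum level (adjusted p = 0.0515 to 0.0912), 1 with a filter at 5 ppm (adjusted p = 0.0512), 1 with equal library medians (adjusted p = 0.0698), 7 in a fit of only the groups compared (adjusted p = 0.0582 to 0.0751) and 1 with group weights (adjusted p = 0.0544).

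Immediate early genes, which respond within minutes to growth factor and stress signals, rose in 5 of 14 cases and fell in none (median 0.41). That is 35.7% higher, against 5.59% of all genes tested. DUSP1, a phosphatase that shuts off MAP kinases, had 11.34 and 11.10 in mutant rescue, against 9.84 and 9.90 in knockdown (difference 1.34, SE 0.12, limma adjusted p = 0.000867). JUN, a subunit of the AP-1 transcription factor, had 11.46 and 11.36 in mutant rescue, against 10.09 and 10.12 in knockdown (difference 1.30, SE 0.14, adjusted p = 0.00266). FOS, its partner, had 11.36 and 11.25 in mutant rescue, against 10.61 and 10.67 in knockdown (difference 0.66, adjusted p = 0.0105). DUSP1, JUN and FOS were also higher in mutant rescue than in rescue, by 0.88, 0.84 and 0.86, with adjusted p = 0.00496, 0.0117 and 0.00221. KLF6, a zinc finger factor gene picked after its value was seen, rose by 0.46. MYC was the 1 called gene among 33 MYC target and ribosome biogenesis genes (3.03%, against 5.59% of all genes higher). It rose by 0.65 over knockdown and did not differ detectably from rescue (0.15, adjusted p = 0.477). RGS16, a regulator of G protein signalling, had 11.16 and 11.19 in mutant rescue, against 10.06 and 10.11 in knockdown and 9.94 and 9.78 in rescue, and was higher by 1.09 and 1.32. The calls of DUSP1, JUN and RGS16 held in every fit that left out a library. Of the calls over knockdown, limma no longer passed 3 without knockdown replicate 1 (adjusted p = 0.109 to 0.167) and 3 without knockdown replicate 2 (adjusted p = 0.103 to 0.181). Settings other than these left uncalled 1 without a minimum level (adjusted p = 0.0631) and 1 in a fit of only the groups compared (adjusted p = 0.0715). For KLF6, the call was lost without knockdown replicate 1 (adjusted p = 0.182), without knockdown replicate 2 (adjusted p = 0.211) and without mutant rescue replicate 2 (adjusted p = 0.0563).

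Beside RGS16, the genes with the highest excess of mutant rescue over rescue fell into ones that also rose over knockdown and ones that did not pass against it. MCEMP1, a mast cell and monocyte membrane protein gene, had 11.57 and 11.59 in mutant rescue, against 10.82 and 10.91 in knockdown and 9.95 and 9.92 in rescue. PCSK5, a proprotein convertase gene, had 13.55 and 13.93 in mutant rescue, against 13.48 and 13.74 in knockdown and 11.60 and 12.32 in rescue, and did not pass against knockdown (0.13, limma adjusted p = 0.791). LYZ, which encodes lysozyme, had 17.86 and 18.51 in mutant rescue, against 17.13 and 17.07 in knockdown and 16.66 and 16.88 in rescue. LYZ and MCEMP1 were thus above both groups, whereas the PCSK5 libraries of mutant rescue and knockdown overlapped. FCGRT, the neonatal Fc receptor gene, and ZNF33B, a zinc finger gene, rose over knockdown by 0.72 and 1.13. C3, VASH1, PLEC and C1orf56 did not pass against knockdown (0.68, 0.36, 0.81 and 1.10) and were above rescue by 1.38, 1.26, 1.27 and 1.54. Of the calls over knockdown, limma no longer passed 4 without knockdown replicate 1 (adjusted p = 0.109 to 0.144), 4 without knockdown replicate 2 (adjusted p = 0.103 to 0.188) and 1 without mutant rescue replicate 2 (adjusted p = 0.0548). Under other settings it did not pass 1 without a minimum level (adjusted p = 0.0612) and 3 in a fit of only the groups compared (adjusted p = 0.0501 to 0.0723). The excess over rescue was lost for PCSK5 without rescue replicate 1 (adjusted p = 0.0508), for C3 without rescue replicate 2 (adjusted p = 0.0719), for C1orf56 in every fit that left out a library except that without mutant rescue replicate 1 (adjusted p = 0.0523 to 0.141), and likewise for PLEC (adjusted p = 0.0651 to 0.153).

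Of 31 monocyte and macrophage genes 4 rose (12.9%, against 5.59% of all genes) and 1 fell (3.23%, against 5.74%; median 0.14), and separately 10 were higher than in rescue. The 3 that rose besides LYZ were CST3, the protease inhibitor cystatin C (0.53), CD14, the lipopolysaccharide co-receptor (0.38), and CTSB, a lysosomal protease (0.40), while the complement receptor gene C5AR1, picked after its value was seen, fell by 0.34 on the log2 scale (limma adjusted p = 0.0496). For C5AR1, the call was lost without control replicate 1 (adjusted p = 0.067), without control replicate 2 (adjusted p = 0.0672), without knockdown replicate 1 (adjusted p = 0.187), without knockdown replicate 2 (adjusted p = 0.252), without mutant rescue replicate 1 (adjusted p = 0.0928) and without mutant rescue replicate 2 (adjusted p = 0.0936). CD14 was low in all libraries, with 4.47 and 4.43 in mutant rescue, against 4.12 and 4.03 in knockdown. PRTN3, the only called gene of 9 primary granule genes (11.1%), rose by 0.63. CEBPE, a late granulocyte factor and the only called gene of 21 myeloid transcription factors (4.76%, against 5.59% of all genes), rose by 0.47. Of 18 genes in the HOXA and MEIS1 list, typical of leukemias with KMT2A fusions, ZEB2 alone was called, and it fell (-0.62). That is 5.56% lower, against 5.74% of all genes. In the leukemia stem cell score CDK6 and ZBTB46 fell (-0.61 and -0.36) of 9 tested (22.2%). CD47, the surface signal against phagocytosis, rose by 0.62. Of 16 growth factor receptor and STAT5 target genes EPOR, the erythropoietin receptor, rose (0.41) and CSF2RB, the shared receptor chain for GM-CSF, fell (-0.57). That is 6.25% in each direction. Of 12 calls among these genes, LYZ and FCGRT included, limma no longer passed 4 without control replicate 1 (adjusted p = 0.051 to 0.0585), 4 without control replicate 2 (adjusted p = 0.0511 to 0.0586), 12 without knockdown replicate 1 (adjusted p = 0.109 to 0.197), 12 without knockdown replicate 2 (adjusted p = 0.126 to 0.272), 6 without rescue replicate 1 (adjusted p = 0.0502 to 0.061), 5 without rescue replicate 2 (adjusted p = 0.0518 to 0.0609), 2 without mutant rescue replicate 1 (adjusted p = 0.0556 to 0.0748) and 10 without mutant rescue replicate 2 (adjusted p = 0.0517 to 0.11). By the alternative settings, the calls lost were 8 without a minimum level (adjusted p = 0.0526 to 0.0782), 4 with equal library medians (adjusted p = 0.0544 to 0.0878) and 11 in a fit of only the groups compared (adjusted p = 0.0501 to 0.0868).

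Cell cycle genes showed no common direction against knockdown. Against rescue, 19 of 47 S phase genes and 5 of 52 G2/M genes were lower and none was higher (medians -0.43 and -0.16). Of all genes tested, 5.89% were lower than in rescue. The S phase genes lower than in rescue numbered 6 without knockdown replicate 1, 6 without knockdown replicate 2, 5 without rescue replicate 1, 2 without rescue replicate 2, 8 without mutant rescue replicate 2, 10 without a minimum level, 11 with group weights and 1 in a fit of only the groups compared, and the G2/M genes 0 to 10 over all settings. Without mutant rescue replicate 1, 22 S phase genes were lower and 2 higher. Against knockdown, 3 S phase genes rose (6.38%) and 5 fell (10.6%), with a median of -0.02. In G2/M, 1 gene rose (1.92%) and none fell (median 0.01). Over all genes tested 5.59% rose and 5.74% fell. E2F1, a transcription factor that drives entry into S phase, had 6.65 and 6.80 in mutant rescue, against 5.61 and 5.67 in knockdown (difference 1.09, SE 0.12, limma adjusted p = 0.00221). CCNE2, a cyclin of that entry, rose by 0.47, and RFC4, a clamp loader subunit gene, by 0.48. GINS4, a helicase subunit gene, had 9.48 and 9.27 in mutant rescue, against 10.23 and 10.21 in knockdown (difference -0.84, adjusted p = 0.00568), and HELLS, a chromatin remodeller, fell by 0.79 on the log2 scale. RRM2, a subunit of the enzyme that makes deoxynucleotides, and GINS1 fell by 1.04 and 0.51. RBL1, a relative of RB1, and CDK6 fell by 0.81 and 0.61, while the inhibitor genes CDKN1B and CDKN1A rose by 0.54 and 0.37. Of 20 repair genes ATM and XRCC2 fell (-0.93 and -0.66) and FANCB and CHEK2 rose (0.89 and 0.43), 10% in each direction. Among 22 p53 targets BAX and CDKN1A rose and TP53INP1 and PLK2 (-0.68) fell, 9.09% in each direction. Of 22 BCL2 family and caspase genes 3 rose (13.6%), the death adaptor gene FADD (0.95), BAX (0.84) and the inflammatory caspase gene CASP4 (0.69). The spindle gene NUSAP1 was the G2/M member that rose (0.39). E2F1 was the only one of 18 such calls that held in every fit leaving out a library. Of the 18, limma no longer passed 2 without control replicate 1 (adjusted p = 0.0512 to 0.0525), 2 without control replicate 2 (adjusted p = 0.0512 to 0.0525), 16 without knockdown replicate 1 (adjusted p = 0.0703 to 0.225), 17 without knockdown replicate 2 (adjusted p = 0.0657 to 0.273), 3 without rescue replicate 1 (adjusted p = 0.0538 to 0.0745), 3 without rescue replicate 2 (adjusted p = 0.0536 to 0.0743), 2 without mutant rescue replicate 1 (adjusted p = 0.0536 to 0.0705) and 10 without mutant rescue replicate 2 (adjusted p = 0.0548 to 0.126). Among the other settings, not passed were 9 without a minimum level (adjusted p = 0.0525 to 0.0743), 3 with equal library medians (adjusted p = 0.0575 to 0.112), 10 in a fit of only the groups compared (adjusted p = 0.0593 to 0.0857), 1 with group weights (adjusted p = 0.0566) and 1 with the replicate block (adjusted p = 0.0509). RFC4, RRM2 and GINS1 were picked after their values were seen; the call was lost for RFC4, RRM2 and GINS1 without knockdown replicate 1 (adjusted p = 0.186 to 0.192), for RFC4, RRM2 and GINS1 without knockdown replicate 2 (adjusted p = 0.188 to 0.214), for RFC4, RRM2 and GINS1 without rescue replicate 1 (adjusted p = 0.0531 to 0.0571), for RFC4, RRM2 and GINS1 without rescue replicate 2 (adjusted p = 0.0531 to 0.0567), for RFC4, RRM2 and GINS1 without mutant rescue replicate 2 (adjusted p = 0.0997 to 0.114), for GINS1 without control replicate 1 (adjusted p = 0.0513) and for GINS1 without control replicate 2 (adjusted p = 0.0512).

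The share of genes called varied among the lists of growth and metabolism, against 11.3% called in either direction and 5.59% called higher over all genes tested. Of 81 cytosolic ribosomal protein genes 2 rose, RPLP0 (0.80) and RPS27 (0.64), and the median difference was 0.25, which was 0.06 for mutant rescue replicate 1 and 0.44 for mutant rescue replicate 2. None of 13 mitochondrially encoded transcripts was called by limma (3 at an unadjusted p under 0.05), with medians of 0.08 and 0.67 for these libraries. Of 16 genes of the proteasome and its activator 5 rose, PSMB4 (0.86), PSME2 (0.72), PSMB6 (0.62), PSME1 (0.48) and PSMA3 (0.46, picked after its value was seen). The PSME genes encode the activator, which interferon also raises. Of 28 respiratory chain genes CYC1, SDHB, ATP5C1 and NDUFV1 rose (0.50, 0.47, 0.43 and 0.36). In fatty acid oxidation ECHS1, ETFB and ETFA rose (0.57, 0.53 and 0.50) and the regulator PPARA fell (-0.58) of 18. In fatty acid synthesis ELOVL1 rose (0.45) and FADS3 and ELOVL2 fell (-0.61 and -0.57) of 17. The acyltransferase genes AGPAT2 and AGPAT1 rose (0.47 and 0.37) of 14. In glycolysis GPI and PFKP rose (0.70 and 0.35) and PDK1, which holds back pyruvate dehydrogenase, fell (-0.87) of 23. In the cholesterol list IDI1 rose (0.39) and the exporter gene ABCG1 fell (-0.36) of 28. None of the aminoacyl-tRNA synthetase, ATF4, heat shock or glutamine genes was called by limma; 2, 2, 5 and 0 of them passed, in that order, at an unadjusted p under 0.05. Of 24 calls in these lists, limma no longer passed 6 without control replicate 1 (adjusted p = 0.0535 to 0.0704), 7 without control replicate 2 (adjusted p = 0.0501 to 0.0705), 24 without knockdown replicate 1 (adjusted p = 0.0897 to 0.225), 24 without knockdown replicate 2 (adjusted p = 0.11 to 0.263), 15 without rescue replicate 1 (adjusted p = 0.0505 to 0.0728), 15 without rescue replicate 2 (adjusted p = 0.0502 to 0.0728), 2 without mutant rescue replicate 1 (adjusted p = 0.0745 to 0.0875) and 22 without mutant rescue replicate 2 (adjusted p = 0.0543 to 0.141). Settings other than these left uncalled 18 without a minimum level (adjusted p = 0.064 to 0.0852), 2 with a filter at 5 ppm (adjusted p = 0.0507 to 0.0512), 10 with equal library medians (adjusted p = 0.0584 to 0.101), 21 in a fit of only the groups compared (adjusted p = 0.0505 to 0.108) and 3 with group weights (adjusted p = 0.0516 to 0.0572). For PSMA3, the call was lost without knockdown replicate 1 (adjusted p = 0.206), without knockdown replicate 2 (adjusted p = 0.224), without rescue replicate 1 (adjusted p = 0.061), without rescue replicate 2 (adjusted p = 0.0609) and without mutant rescue replicate 2 (adjusted p = 0.126). With library medians made equal, no respiratory chain gene and 3 proteasome genes were called higher.

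Among RNA and protein modifiers, the m6A writer subunit gene WTAP rose (0.84) as the only called gene of 19 m6A factors (5.26%). PRMT1, the main arginine methyltransferase, rose (0.40) as the only called gene of 11 arginine methyltransferases and partners (9.09%). Over all genes tested 5.59% rose and 5.74% fell, so counts this small say little about a list. The endoplasmic reticulum chaperone gene HSPA5 had 15.26 and 15.25 in mutant rescue, against 14.75 and 14.73 in knockdown (difference 0.52, limma adjusted p = 0.022). DNAJC3 rose by 0.79 and HYOU1 fell by 0.63 on the log2 scale, so that 2 genes of that list rose (9.52%) and 1 fell (4.76%) of 21. EED, a polycomb subunit gene, rose by 0.47 as the only called gene of 23 DNA methylation and chromatin regulators (4.35%). Of 27 tested replication-dependent histone genes, whose messages end without a poly(A) tail and whose copies are nearly identical, 5 rose, HIST2H2AA4 (0.89), HIST1H3H (0.84), HIST1H4C (0.53), HIST2H4A (1.06) and HIST1H2AM (0.56, picked after its value was seen), and their values are uncertain for both reasons. Of 10 calls here, limma no longer passed 2 without control replicate 1 (adjusted p = 0.051 to 0.0515), 2 without control replicate 2 (adjusted p = 0.0512 to 0.0517), 10 without knockdown replicate 1 (adjusted p = 0.0827 to 0.211), 8 without knockdown replicate 2 (adjusted p = 0.0776 to 0.251), 2 without rescue replicate 1 (adjusted p = 0.057 to 0.0642), 2 without rescue replicate 2 (adjusted p = 0.0567 to 0.064), 1 without mutant rescue replicate 1 (adjusted p = 0.0537) and 7 without mutant rescue replicate 2 (adjusted p = 0.0633 to 0.129). Under other settings it did not pass 5 without a minimum level (adjusted p = 0.0697 to 0.088), 1 with equal library medians (adjusted p = 0.0853), 9 in a fit of only the groups compared (adjusted p = 0.0501 to 0.0854) and 2 with group weights (adjusted p = 0.0551 to 0.0804). For HIST1H2AM, the call was lost without control replicate 1 (adjusted p = 0.0618), without control replicate 2 (adjusted p = 0.062), without knockdown replicate 1 (adjusted p = 0.136), without knockdown replicate 2 (adjusted p = 0.255), without mutant rescue replicate 1 (adjusted p = 0.075) and without mutant rescue replicate 2 (adjusted p = 0.0511).

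Decreases were led by members of repeated gene families and by pseudogenes. NPIPB5, of the nuclear pore complex interacting protein family on chromosome 16, had 9.19 and 9.33 in mutant rescue, against 10.98 and 11.20 in knockdown (difference -1.83, SE 0.16, limma adjusted p = 0.000573). SMG1P3, a pseudogene of the decay kinase gene SMG1, had 7.10 and 7.10 in mutant rescue, against 8.77 and 8.78 in knockdown (difference -1.68, adjusted p = 0.00323). NPIPB4 had 7.47 and 7.67 in mutant rescue, against 9.17 and 9.30 in knockdown (difference -1.66, adjusted p = 0.000846). In each of these genes the mutant rescue libraries lay below both knockdown libraries, and below both rescue and both control libraries. By shared symbol stem, a grouping made after these values were seen, 4 of 7 tested NPIP genes, 4 of 7 SMG1 and SMG1 pseudogenes and 5 of 7 SPDYE genes on chromosome 7 fell and none rose. Over all genes tested 5.74% fell, and of pseudogenes 19.6%. The stems are those of genes already picked as the deepest decreases, and these genes are among the ones counted. SMG1 itself fell by 1.00 on the log2 scale (adjusted p = 0.0104), whereas among 13 other factors of nonsense-mediated decay only SMG8 was called, and it rose (0.58). Members of these families are nearly identical, and the counting can pass reads from one to another, so the values of single members are uncertain.

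The other named decreases included protein-coding genes of several functions and further pseudogenes. RAB2B, a small GTPase gene of the secretory route, had 8.84 and 8.67 in mutant rescue, against 10.18 and 10.18 in knockdown (difference -1.43, SE 0.14, limma adjusted p = 0.00109), and had 8.92 and 8.92 in rescue. CLASP1, a microtubule plus-end protein gene, had 8.69 and 8.82 in mutant rescue, against 9.89 and 10.25 in knockdown (difference -1.31, adjusted p = 0.0148). TP53INP1, a stress-induced p53 target, had 8.12 and 8.50 in mutant rescue, against 9.39 and 9.52 in knockdown (difference -1.14, adjusted p = 0.0211). For these 3 genes mutant rescue did not differ detectably from rescue (-0.17, -0.07 and -0.18). ERVW-1, the syncytin gene of an endogenous retrovirus, fell by 1.30, NCR3LG1, a ligand of a natural killer receptor, by 1.10, SMIM18 by 1.13 and FAM179A by 1.16 on the log2 scale. The pseudogenes SMG1P1, ATP5F1P1, DUTP2 and B3GALNT1P1 fell by 1.46, 1.45, 1.21 and 1.16, and SPDYE2 by 1.20. The calls of NPIPB5, SMG1P3, NPIPB4, ATP5F1P1, RAB2B and DUTP2 held in every fit that left out a library. Of the 15 calls, limma no longer passed 8 without knockdown replicate 1 (adjusted p = 0.0599 to 0.157), 8 without knockdown replicate 2 (adjusted p = 0.0582 to 0.24), 1 without mutant rescue replicate 1 (adjusted p = 0.073) and 2 without mutant rescue replicate 2 (adjusted p = 0.0505 to 0.0714). By the alternative settings, the calls lost were 2 without a minimum level (adjusted p = 0.0525 to 0.0818).

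**Figure D4:**
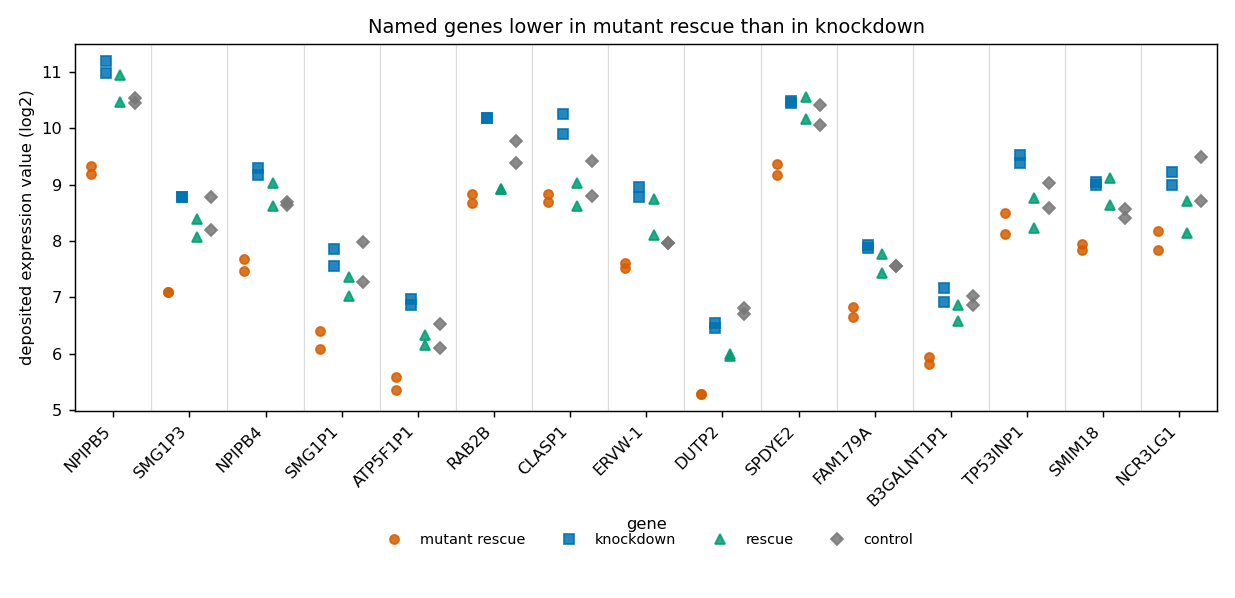
Deposited log2 expression value (vertical axis) of the 15 named genes with the deepest decreases (horizontal axis) in each library of mutant rescue, knockdown, rescue and control, 1 symbol per library. For NPIPB5 the mutant rescue libraries stand at 9.19 and 9.33, below every library of the other groups, while for RAB2B mutant rescue and rescue lie together below knockdown.

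The direction of a difference went with gene class, level and transcript length. Of 363 tested pseudogenes 71 fell (19.6%) and 4 rose, against 563 lower (4.79%) and 696 higher of 11743 protein-coding genes. With genes split by mean level into 5 bins of equal size, 41 of 212 pseudogenes (19.3%) and 207 of 2020 protein-coding genes (10.2%) fell in the lowest bin, and 25 of 94 (26.6%) and 160 of 2294 (6.97%) in the next. From the lowest to the highest level bin, the genes called lower numbered 310, 223, 110, 76 and 28, and those called higher numbered 35, 63, 106, 182 and 341. Among protein-coding genes split likewise by their longest transcript in GENCODE release 29, the median difference from the shortest to the longest bin was 0.23, 0.13, 0.05, -0.03 and -0.11. Both mutant rescue libraries showed this order, with 0.18 in the shortest and -0.14 in the longest bin for replicate 1 and 0.26 and -0.09 for replicate 2. In the shortest and longest bins the medians were 0.04 and -0.06 for rescue minus knockdown, and 0.12 and -0.09 for control minus knockdown. Interferon list members rose in every length bin, in 13 of 17, 10 of 16, 14 of 23, 5 of 15 and 10 of 15 cases from short to long. Whether length or level plays a part in the other calls was not tested.

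**Figure D5:**
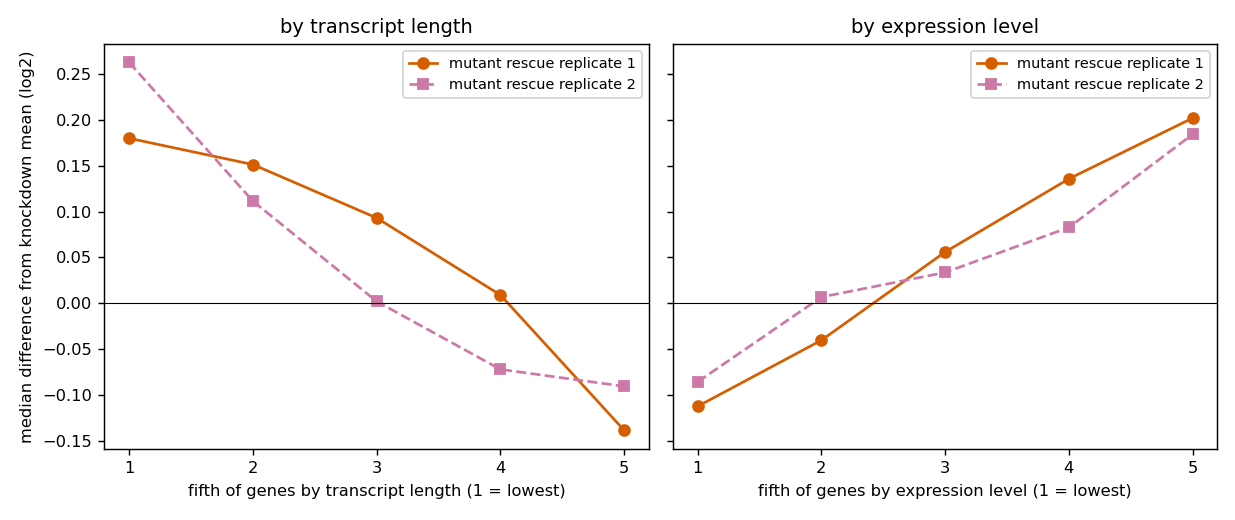
Median difference in log2 value from the knockdown mean (vertical axis) for each mutant rescue library, over 5 bins of protein-coding genes by transcript length (left) and of all tested genes by mean level (right). Both libraries run downward with length, to -0.14 and -0.09 in the longest bin, and upward with level, to 0.20 and 0.18 in the highest bin.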

How the data were processed

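The data are polyA RNA sequencing of 8 MOLM13 libraries, 2 in each of 4 groups, taken from the labels. The authors deposited 1 table with a log2 value per gene and library, normalized across the 8 libraries and made with getDiffExpression.pl of HOMER, per the file header. The normalization option is not in the header. The submitters' processing notes also name Trim Galore, kallisto and GRCh38, without role or version. The same deposited table holds the authors' log2 fold changes with raw and adjusted p-values, used here only where named. Read counts were not used and the depth is unknown, so the number of libraries sets the precision. Values of low genes differ little between libraries, so differences of low genes are understated.

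The deposited log2 values were fitted as they are (no pseudocount) with limma 3.58.1 in R 4.3.3, with 4 group means over 8 libraries and a trended prior. This left 4 residual degrees of freedom and 4.52 prior ones. Tested were named genes reaching 1 ppm of the summed linear values in 2 libraries or more, and 26 rows with a number in place of a symbol were left out. The p-values were adjusted by Benjamini-Hochberg over all 13016 genes, and the fit was tested on simulated data. The members and lists were chosen with earlier results of these data known.

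Named genes are IGF2BP2, PRMT6 and MFSD2A, the 10 highest increases, the 12 highest increases outside the interferon, antigen presentation and inflammation lists, the 15 deepest decreases, up to 4 called members per list by adjusted p, and the 10 extremes in each direction against rescue. Apart from list members, named genes needed libraries that do not overlap and at least 5 ppm in the higher group. Alternatives were no filter, a filter at 5 ppm, equal library medians, only the groups compared, group weights, a replicate block, and leaving out each library. Leaving out control libraries, rescue libraries for the difference from knockdown, and knockdown libraries for the difference from rescue was added after seeing the data. Promoters are from RefSeq (GRCh38.p14), and gene classes and transcript lengths are from GENCODE release 29. Some members of the lists are counted but not reported here by name.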

Additional observations from a re-analysis of the deposited data

How the results depend on the processing

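No named call changed direction under any alternative run. Of 137 named genes called against knockdown, 39 passed in every fit, and of 20 named for their difference from rescue, 14 did. The genes higher than in knockdown, 727 as reported, numbered 217 with no filter on low values, 376 with equal library medians and 121 in a fit of only the groups compared. The genes lower than in knockdown, 747 as reported, numbered 355 with no filter, 389 with a filter at 5 ppm and 153 in a fit of only the groups compared. The genes higher than in rescue, 601 as reported, numbered 299 with no filter, 46 in a fit of only the groups compared and 247 with group weights. The genes lower than in rescue, 767 as reported, numbered 477, 147 and 391 under the same settings. With 1 library left out, these 4 counts ran from 57 to 1850, 22 to 951, 70 to 1687 and 171 to 1182; a left-out library leaves its group with 1, which is assumed to vary like the others. Fewer genes tested, more genes tested or fewer libraries enter by construction, and otherwise the cause was not tested. The share of calls against knockdown that were higher was 49.3% as reported, 28.5% with equal medians, 61.8% at 5 ppm and 37.9% with no filter. The IGF2BP2 difference of 0.61 kept its size, with limma adjusted p = 0.0669 for 0.61 with no filter and 0.0722 for 0.61 in a fit of only the groups compared, and it ran from 0.44 to 0.78 with 1 library left out. Interferon list members higher than in knockdown numbered 35 to 53, and those lower than in rescue 50 to 60. The labels tie no replicate numbers across groups, and same-numbered deviations correlated at 0.0198 between mutant rescue and knockdown and 0.189 between mutant rescue and rescue (-0.0212 to 0.414 over all pairs of groups). With a replicate block 952 genes were higher and 852 lower than in knockdown, and 136 of the 137 named calls passed.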
